A study of Mus musculus with 2 samples.

Results

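Spink1, Serpini2 and Nupr1 are 3 of the 14789 gene symbols measured in cells sorted from mouse pancreas, and they held 13550 of the 2353008 unique molecular identifiers (UMIs, each counting 1 captured RNA molecule) in the data. They were taken by name from the count table, and their level, the share of cells with a UMI and their ratio to trypsinogen, the precursor of trypsin, were read in acinar cells. A cell was called acinar where at least 10% of its UMIs came from 10 digestive enzyme genes, namely Ctrb1, Try4, Cela1, Prss2, Cela3b, Cpb1, Pnlip, Clps, Cela2a and Cpa1. This rule took 275 of 728 cells and left 453 other cells. The genes have been grouped as protective, a name for what their products are known for. The data hold transcript counts and no measure of protection.

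The cells came from the pancreas of adult mice of genotype Tff2CreERT2; R26-tdTomato, given tamoxifen. The Cre recombinase is driven by Tff2, so the red reporter marks cells with Tff2 expression at the time of induction and their descendants, and the sort took CD45- TER119- EpCAM+ RFP+ cells. There were 2 samples of this 1 group and no control group. The number of animals per sample and the interval between tamoxifen and sorting are not stated in the labels. The cells could not be tied to the samples, so the table was read as 1 pooled sample. No test between samples could be made. Every interval of a level, ratio or fold below is an exact 95% interval that covers counting error only. Intervals of shares of cells are exact 95% intervals that treat cells as independent draws, although cells are not replicates.

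Acinar cells make trypsinogen together with the other digestive enzymes, store them in zymogen granules and release them into the ducts, where trypsin is normally formed only after the juice reaches the gut. Spink1 (known earlier as Spink3 in the mouse) is a small Kazal-type inhibitor that is packed with trypsinogen and blocks trypsin formed too early. Serpini2 is a secreted member of the serpin family of protease inhibitors and is known mainly from the pancreas. Nupr1 is a small nuclear stress protein of no enzymatic activity whose RNA is known to rise in acinar cells in acute pancreatitis and during endoplasmic reticulum and amino acid stress. The 3 genes thus act at different places, with the inhibitors in the secretory pathway and Nupr1 in the nucleus.

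In the GENCODE M21 annotation of GRCm38, the assembly also called mm10, all 3 are protein-coding genes on the minus strand. Serpini2 lies on chromosome 3 from 75242370 to 75270078 and has 9 exons. Nupr1 lies on chromosome 7 from 126623249 to 126630861, with 3 exons in its first listed transcript and 6 annotated transcripts. No other annotated gene overlapped any of the 3, so reads of an overlapping gene do not enter their counts under this annotation.

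The upstream sequences shown are those of Serpini2, which was nearly absent outside acinar cells, and Nupr1, which was not. Both come from RefSeq on GRCm38.p6, minus strand, written 5′ to 3′. For Serpini2 they are the 250 bases before the RefSeq start (chr3:75270079-75270328). For Nupr1 they are 29 bases around 1 match (chr7:126625563-126625591), because GENCODE places an exon of another transcript there.
Serpini2: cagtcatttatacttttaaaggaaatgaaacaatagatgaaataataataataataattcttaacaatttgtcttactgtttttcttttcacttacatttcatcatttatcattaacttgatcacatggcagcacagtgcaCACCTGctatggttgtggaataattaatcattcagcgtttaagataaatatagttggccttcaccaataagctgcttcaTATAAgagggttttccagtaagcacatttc
Nupr1: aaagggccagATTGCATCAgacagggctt
Capitals mark matches. In Serpini2 these were CACCTG, an E-box of the kind that basic helix-loop-helix factors such as Ptf1a can bind, 109 bases before the start, and TATAA, a core promoter element, 30 bases before the start. In Nupr1 the capitals are the reverse complement of TGATGCAAT, a composite element of the kind that Atf4 and its CEBP partners can bind, starting 111 bases before the start. The search of 32851 promoters, each 250 bases long, found CACCTG on either strand in 17.2%, TATAA on the gene's strand in 16.0% and TGATGCAAT on either strand in 0.167%. Nupr1 also had TATAA, 49 bases before its RefSeq start. A match describes the letters and shows no binding.

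Acinar cells held 1179733 UMIs with a median of 2117 per cell, and other cells held 1173275 with a median of 2079. The medians were close, but the means were 4290 and 2590.01 UMIs per cell and the deepest cells held 53222 and 11453. The 10 enzyme genes took 53.3% of acinar UMIs and 1.36% of those in other cells. Levels are given in CPM (UMIs per 1000000 UMIs). Of 22 measured acinar genes outside the rule, 19 had at least 50 UMIs and were at least 2-fold higher in acinar cells, as a check of the label; 10 of these reached 50 UMIs only through the acinar cells. Among markers of other cell types, ductal genes summed to 568 CPM in acinar cells against 3295 CPM in the others, erythroid genes to 324 against 74229 CPM and endothelial genes to 119 against 5567 CPM. The other cells were thus largely of types that a gate for EpCAM and against CD45 and TER119 would remove, with 171 endothelial-like, 100 B or plasma-like and 87 T or NK-like cells beside 36 ductal-like ones. Barcodes ended in 1 (229 acinar and 438 other cells) or 2 (46 and 15). Of the barcodes, 7 stood under both endings, all acinar, with 1034 to 2138 UMIs under ending 1 and 6103 to 10606 under ending 2, and whether they are the same cells was not tested.

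Spink1, which lies on chromosome 18 from 43728082 to 43737557 with 4 exons, was found in nearly every acinar cell. Its 8610 UMIs made 7298 CPM (7145 to 7454), and 273 of 275 cells had at least 1 UMI (99.3%, 97.4 to 99.9%). The count per cell ran from 0 to 561 with a median of 15 and quartiles of 7 and 31.5. After every cell was thinned to 1000 UMIs the share was 98.2%, so the detection of this inhibitor depended little on depth.

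Serpini2 was sparse. Its 453 UMIs made 384 CPM (349 to 421), and 174 acinar cells had at least 1 (63.3%, 57.3 to 69.0%), with a median of 1 UMI and a maximum of 12. Thinned to 1000 UMIs per cell, 37.1% of cells had a UMI. The share of cells with this serpin therefore moved with depth, and a cell at 0 cannot be called one that lacks it.

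Nupr1 lay between them in detection. Its 4041 UMIs made 3425 CPM (3321 to 3533), and 249 acinar cells had at least 1 (90.5%, 86.5 to 93.7%; 80.7% after thinning). The count per cell ran from 0 to 284 with a median of 5. The sum leaned on deep cells: without the 10 deepest cells, which held 24.7% of acinar UMIs, Nupr1 was at 2871 CPM, while Spink1 was at 7287 and Serpini2 at 421. The 92 deepest cells, with at least 3212 UMIs each, had Nupr1 at 3822 CPM (3694 to 3955), against 2156 CPM (1957 to 2369) in the 91 cells of middle depth and 2610 CPM (2318 to 2927) in the 92 shallowest. The deepest cells thus stood apart in Nupr1 with no steady order below them, and the part of depth in the level was not tested.

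Trypsinogen was read as Prss2 plus Try4, the pair named in the rule, at 124947 acinar UMIs and 10.6% of the total. Prss2 was at 42836 CPM and Try4 at 63075 CPM, and every acinar cell had both. Per 100 trypsinogen UMIs there were 6.89 UMIs of Spink1 (6.74 to 7.04), 0.363 of Serpini2 (0.330 to 0.398) and 3.23 of Nupr1 (3.13 to 3.34). Read the other way, 14.5 trypsinogen UMIs were counted for each Spink1 UMI, 276 for each of Serpini2 and 30.9 for each of Nupr1. UMIs count captured molecules without division by transcript length, and genes can differ in capture, so these are ratios of counted RNA and not of proteins.

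**Figure D1:**
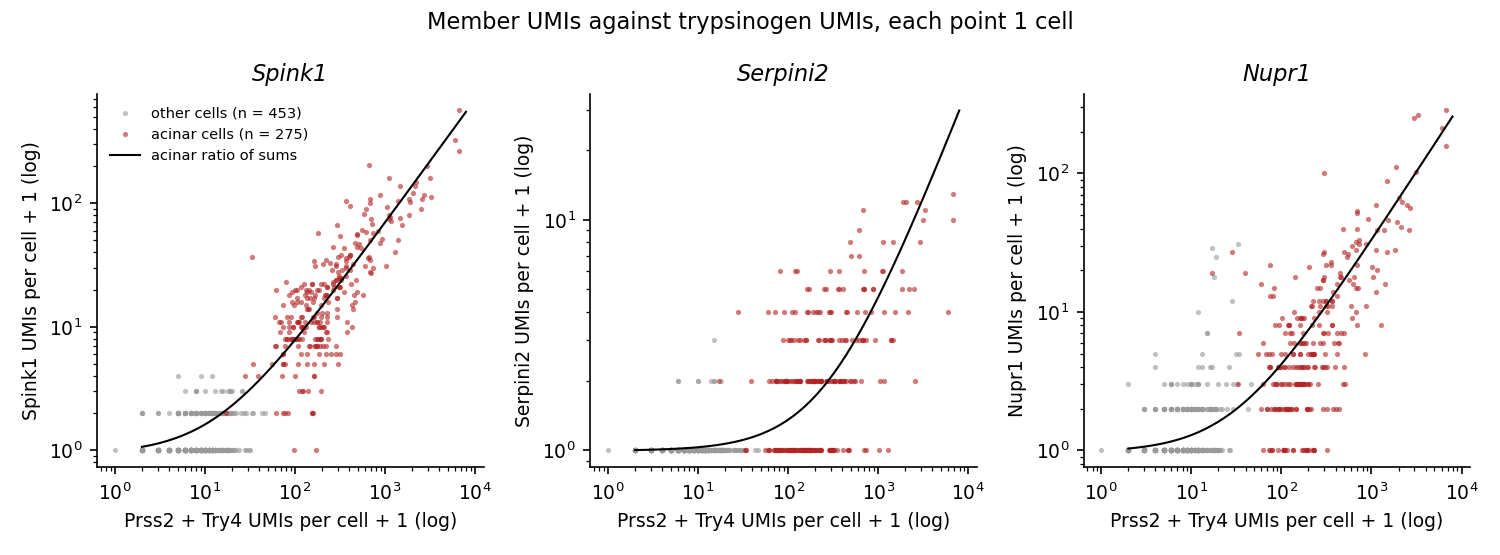
Each panel plots the UMIs of 1 gene (y axis, plus 1, log) against Prss2 plus Try4 UMIs (x axis, plus 1, log), with 275 acinar cells in red and 453 other cells in grey; the line is the acinar ratio of sums (6.89, 0.363 and 3.23 per 100). Spink1 rose along its line from cell to cell, Serpini2 stayed at 12 UMIs or fewer, and grey points with 11 to 30 Nupr1 UMIs stood far above the Nupr1 line at few trypsinogen UMIs.

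The ratio was then taken in each of the 274 acinar cells with at least 20 trypsinogen UMIs. For Spink1 the median was 7.15 per 100 with quartiles of 4.26 and 10.2. In 39.8% of cells the Spink1 ratio differed from 6.89 by more than the counting error of that cell, 18.6% below and 21.2% above. The highest ratio was 112.5 (36 Spink1 and 32 trypsinogen UMIs), the single cell with more Spink1 than trypsinogen UMIs. The lowest ratio among cells with over 200 trypsinogen UMIs was 1.33, from 4 Spink1 UMIs against 301. Cells with full trypsinogen and little Spink1 were therefore present, and 2 cells had no Spink1 UMI at all.

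For Nupr1 the median was 2.05 per 100 with quartiles of 1.11 and 4.06, below the ratio of sums of 3.23, and 33.2% of cells lay outside counting error, 21.9% below and 11.3% above. The highest Nupr1 ratios stood in cells with little trypsinogen, at 96.3 (26 against 27 UMIs) and 47.4 (18 against 38). For Serpini2 the median was 0.298 with an upper quartile of 0.773, 101 cells were at 0, and 9.85% lay outside counting error. At 1 UMI per typical cell, most of the spread in the Serpini2 ratio could not be told from counting error.

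**Figure D2:**
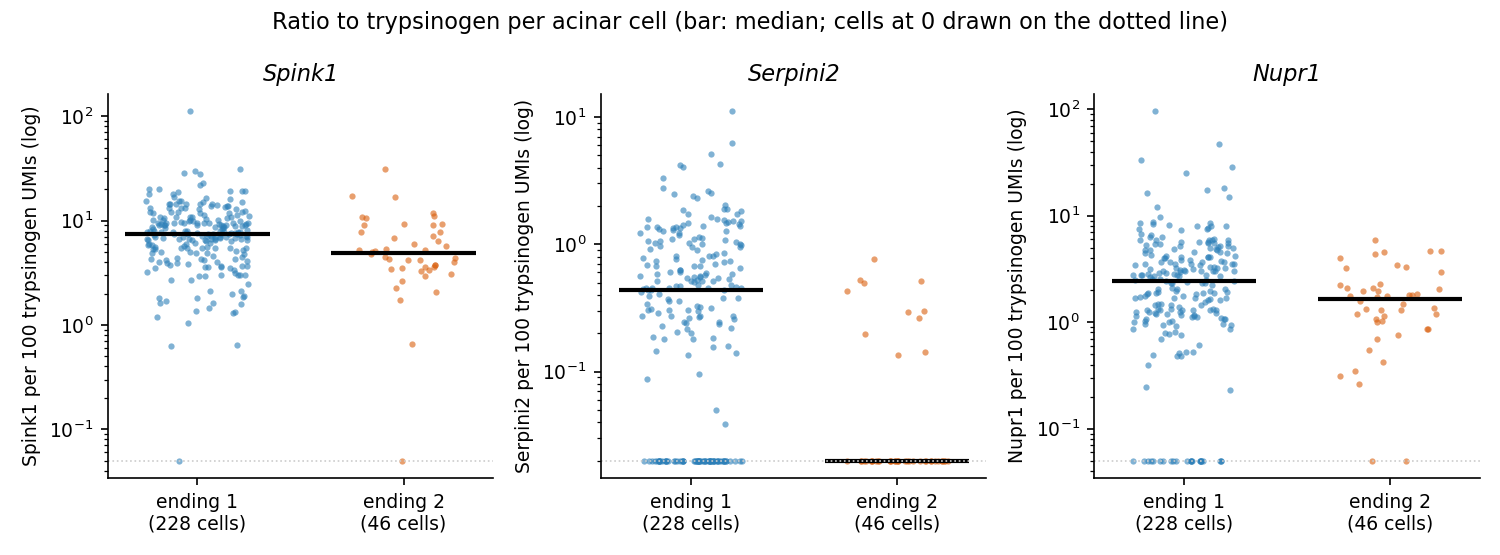
Each point is 1 of the 274 acinar cells with at least 20 trypsinogen UMIs, and the y axis (log) gives UMIs of the gene per 100 trypsinogen UMIs, by barcode ending; bars are medians, and cells at 0 are drawn on the dotted line. The medians under endings 1 and 2 were 7.47 and 4.92 for Spink1, 0.438 and 0 for Serpini2, and 2.43 and 1.64 for Nupr1.

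The members were then read in cells ordered by the share of UMIs from Prss2 and Try4. From the 92 cells with the lowest share through the middle 91 to the 92 with the highest, Spink1 went from 6919 through 7892 to 7093 CPM, and Nupr1 from 3332 through 3403 to 3484 CPM. With the enzyme genes out of the totals both were lowest in the first set, at 13125 through 16811 to 16266 for Spink1 and 6321 through 7250 to 7989 for Nupr1, so whether they look level depends on the total. The ratios fell as trypsinogen took more of the RNA, from 11.03 through 8.31 to 5.31 per 100 for Spink1 and from 5.31 through 3.59 to 2.61 for Nupr1. Serpini2 went down in level as well, from 550 through 416 to 284 CPM, and from 0.877 through 0.439 to 0.213 per 100. The ordering divides by the same trypsinogen counts and is a description. Of the 92 cells with the highest share 29 had ending 2, against 3 of the 92 with the lowest.

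In other cells all 3 genes were low. Spink1 was at 114 CPM (95.7 to 135) with a UMI in 114 of 453 cells (25.2%; 12.6% after thinning), and no other cell held more than 3 UMIs. Serpini2 was at 8.52 CPM (4.09 to 15.7) with a UMI in 9 cells (1.99%) and at most 2 in any of them. Nupr1 was at 257 CPM (229 to 288) with a UMI in 133 cells (29.4%; 15.2% after thinning) and up to 30 in 1 cell. Acinar cells held 98.5% of all Spink1 UMIs, 97.8% of those of Serpini2 and 93.0% of those of Nupr1.

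The log2 ratio of acinar over other cells was 5.99 for Spink1 (5.75 to 6.25), 5.42 for Serpini2 (4.60 to 6.56) and 3.73 for Nupr1 (3.57 to 3.91), or 63.9-fold, 45.1-fold and 13.3-fold. Serpini2 reached 50 UMIs only through the acinar cells. All 3 were at least 2-fold higher, where 3.85% of the 3615 genes with at least 50 UMIs were and 85.3% were at least 2-fold lower. They ranked 6, 22 and 67 of 3615. The enzymes that fill acinar libraries press down the share of every other gene, and the median gene stood at -2.57. With the 10 enzyme genes left out of the totals the median was -1.49, the members were at 7.07, 6.50 and 4.81, and 7.16% of genes lay at 2-fold or more above the other cells, with 62.7% as far below. On either scale Spink1 stood 8.56 log2 units above the median gene, Serpini2 7.99 and Nupr1 6.30.

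**Figure D3:**
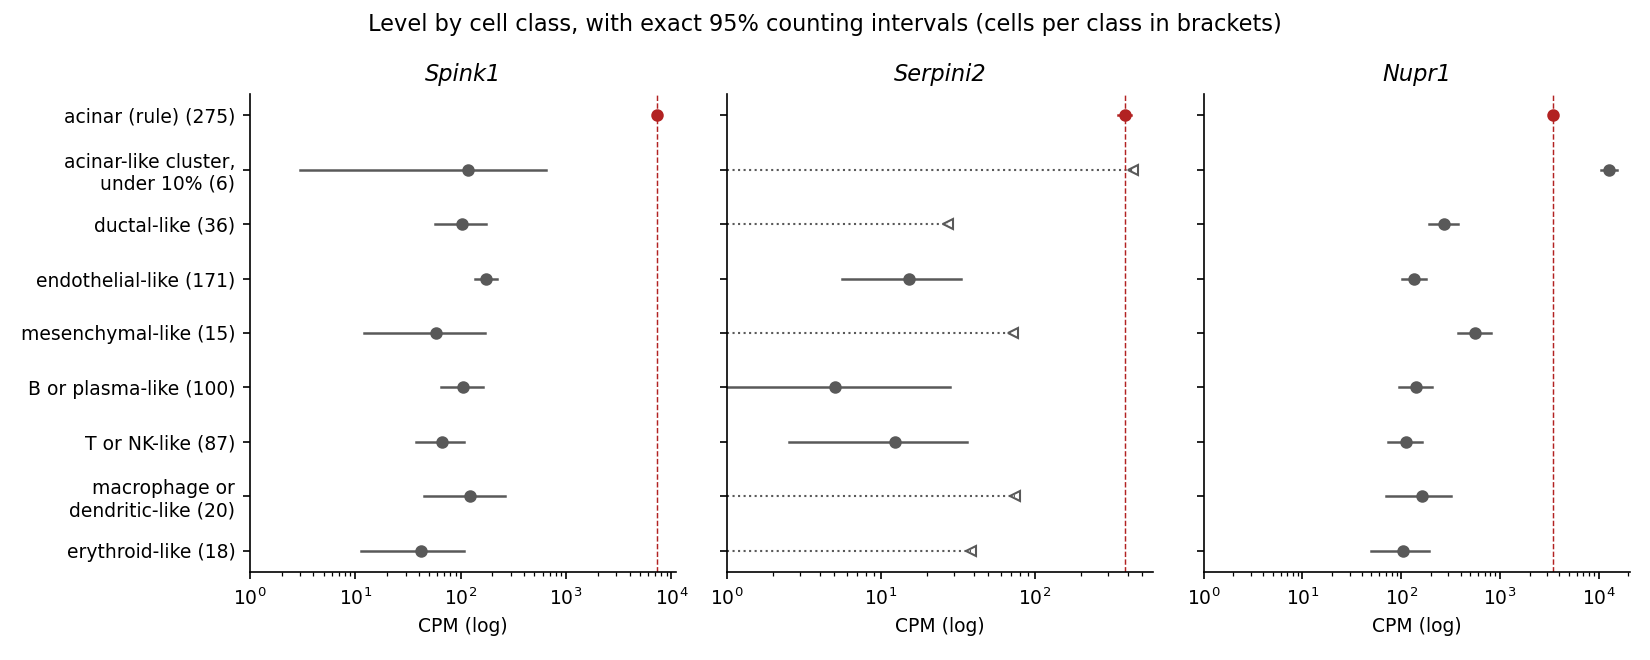
Each panel gives the level of 1 gene in CPM (x axis, log) in the acinar cells of the rule (red) and in the classes of other cells (grey), with exact 95% counting intervals; open triangles are upper ends where no UMI was counted, and the dashed line is the acinar level. Spink1 and Serpini2 were lower in every class whose interval was narrow enough to tell, while Nupr1 was higher than in acinar cells in 6 cells of an acinar-like cluster that fell under 10%.

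Droplets take up RNA that leaks from broken acinar cells, and every class of other cells held enzyme UMIs. The acinar ratio to the 10 enzyme genes was taken as a mark for such free RNA. A gene counted in a class only through it would stand near that ratio if free RNA resembled the summed acinar cells. The make-up of free RNA itself was not measured. Spink1 was at 13.7 UMIs per 1000 enzyme UMIs in acinar cells and at 8.38 in other cells, 0.612 times the acinar ratio (0.512 to 0.725). By class it ran from 5.82 in T or NK-like cells through 7.50 in ductal-like to 11.2 in endothelial-like cells, with B or plasma-like cells at 7.55, below the acinar ratio in each of these classes, though the endothelial-like interval (0.636 to 1.04 times) reached it. These UMIs stood at or below the level that free RNA at the acinar ratio would give. Whether they came from free RNA or from expression in these classes was not tested, nor was why most classes stood below that ratio. In ductal-like cells, the other epithelial class, 12 of 36 cells had a Spink1 UMI (33.3%) at a median depth of 3171 UMIs, against 54 of 171 endothelial-like cells (31.6%) at 1871.

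Serpini2 in other cells was at 0.625 per 1000 enzyme UMIs against 0.720 in acinar cells, 0.868 times (0.416 to 1.60). Its 10 UMIs fell in endothelial-like (6), T or NK-like (3) and B or plasma-like cells (1). It was counted in 0 of 36 ductal-like cells, where 3 counts, the limit taken for a count of 0, would be 8.33% of cells with a UMI (exact upper bound 9.74%). Since this gene reached only 37.1% of acinar cells after thinning, that limit says nothing about how many of them may express it. The ratio over all other cells did not differ from the acinar one beyond counting error.

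Nupr1 went the other way, with 18.9 UMIs per 1000 enzyme UMIs in other cells against 6.42 in acinar cells, 2.94 times (2.61 to 3.29). It was highest in 6 low-enzyme cells of acinar-like clusters, at 204 (165 to 251), which held 110 of the 302 Nupr1 UMIs of other cells. Next came 15 mesenchymal-like cells, at 60.9 (40.4 to 88.7), 564 CPM (378 to 810) and a UMI in 11 of 15. In the ductal-like cells Nupr1 was at 19.8 (13.9 to 27.4), 274 CPM (193 to 378) and a UMI in 21 of 36. Endothelial-like cells were at 8.59 (6.43 to 11.3), B or plasma-like cells at 10.1 (6.68 to 14.6) and T or NK-like cells at 9.82 (6.46 to 14.3). Against the acinar ratio these were 9.49 times in mesenchymal-like (6.35 to 13.6) and 3.09 times in ductal-like cells (2.17 to 4.26). Erythroid-like cells stood at 2.36 times (1.13 to 4.35), which overlaps the ductal-like interval, B or plasma-like at 1.57 (1.04 to 2.27), T or NK-like at 1.53 (1.01 to 2.23) and endothelial-like at 1.34 (1.00 to 1.75). In this clustering Nupr1 was therefore above the acinar ratio in nearly every named class. Apart from the low-enzyme cells of acinar-like clusters, it was so by the most in mesenchymal-like cells. Among these classes only macrophage or dendritic-like cells, at 1.63 times (0.705 to 3.22), had an interval that reached below it. Of the 27 Nupr1 UMIs in T or NK-like cells, 9 came from 1 cell. With a finer clustering the mesenchymal-like class took 29 cells, and Nupr1 there was at 36.5 per 1000 enzyme UMIs and 379 CPM. Ductal-like cells stayed at 19.8 and B or plasma-like cells at 10.1. But T or NK-like cells were then at 6.94 (3.88 to 11.5) and endothelial-like cells at 7.89 (5.70 to 10.6). Both of these intervals held the acinar ratio, so the excess in these 2 classes depended on the clustering.

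**Figure D4:**
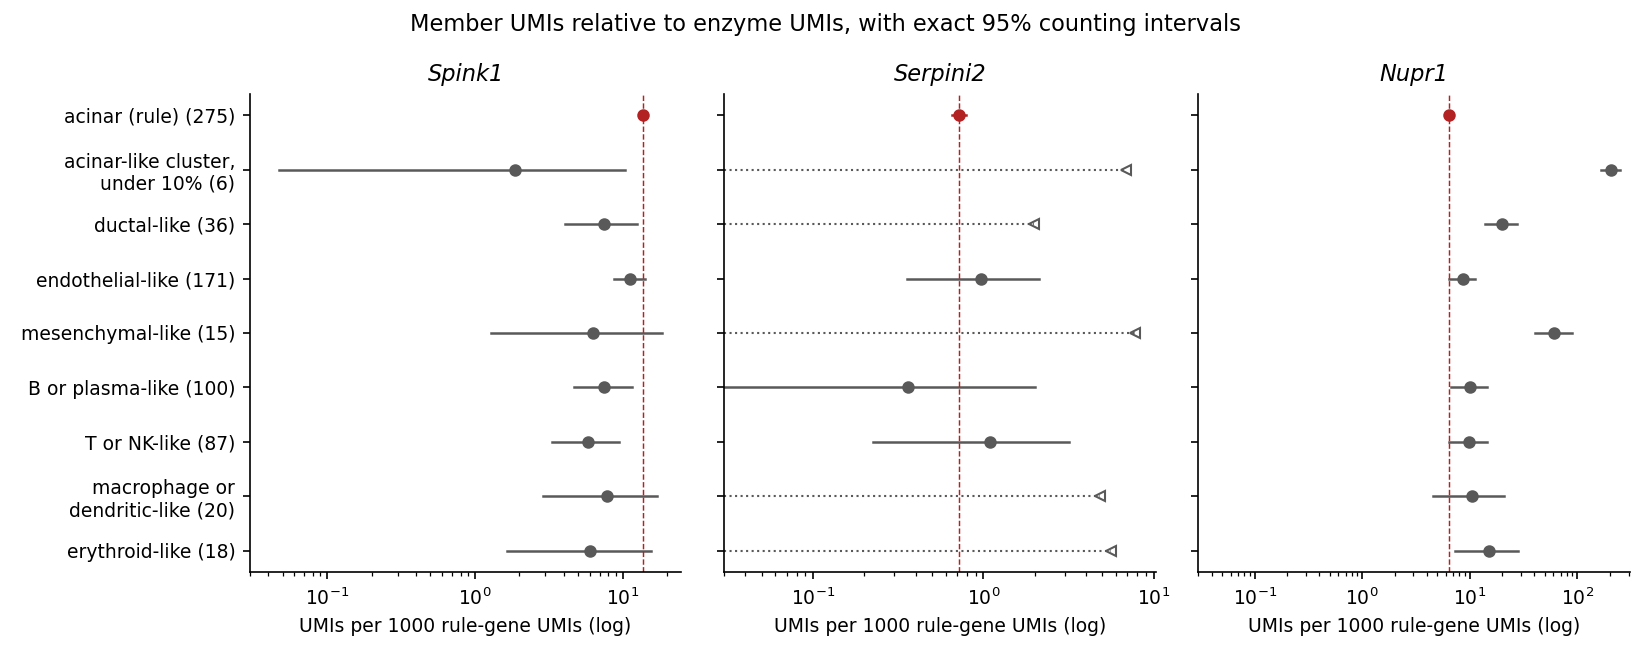
The x axis (log) gives UMIs of each gene per 1000 UMIs of the 10 enzyme genes, with exact 95% counting intervals, by class; the dashed line is the acinar ratio (13.7, 0.720 and 6.42), and open triangles are upper ends where no UMI was counted. Spink1 lay at or left of its line in every class, and Nupr1 lay right of it, farthest in the 6 cells of an acinar-like cluster under 10% and in mesenchymal-like cells.

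The rule's threshold mattered for Nupr1. Just inside it, the 4 cells with 11.4 to 17.0% of UMIs from the enzyme genes, of which 2 fell in acinar-like, 1 in an endothelial-like and 1 in the ductal-like cluster, had 18, 0, 26 and 6 Nupr1 UMIs, 1, 1, 3 and 4 of Spink1 and 1, 0, 3 and 0 of Serpini2. Just outside, 13 cells had 5.18 to 8.94%. Of these, 5 fell in an acinar-like cluster and held 11 to 30 Nupr1 UMIs each, 110 in all, with 1 Spink1 UMI and no Serpini2 UMI between them. The remaining 8, in endothelial-like, ductal-like and B or plasma-like clusters, held 0 to 3 Nupr1 UMIs each and 8 Spink1 UMIs in all. So 36.4% of the Nupr1 UMIs counted outside acinar cells came from 5 cells.

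Those 5 cells had few UMIs (1044 to 1878) and 13.2 to 25.03% of them from Malat1, a long noncoding RNA kept in the nucleus, against 0.920 to 6.50% in the other 8. They also had 1 to 8 UMIs of Rbpjl, an acinar transcription factor gene, against 0 or 1. Their mitochondrial share ran from 1.92 to 26.4%. In CPM, Nupr1 was at 5781 (4789 to 6917) over all 13 cells at 5 to 10% enzyme UMIs and at 9273 (6883 to 12225) over the 4 at 10 to 20%. It was at 4254 at 20 to 40%, 4206 at 40 to 50%, 3296 at 50 to 60% and 2050 above 60%. Spink1 went the opposite way at the low end, with 437 CPM at 5 to 10%, 1669 at 10 to 20% and 7272 at 20 to 40%. Cells with few enzyme UMIs, much Malat1 and acinar factor RNA were thus the highest in Nupr1 and low in Spink1. The part that RNA quality had in these levels was not tested.

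**Figure D5:**
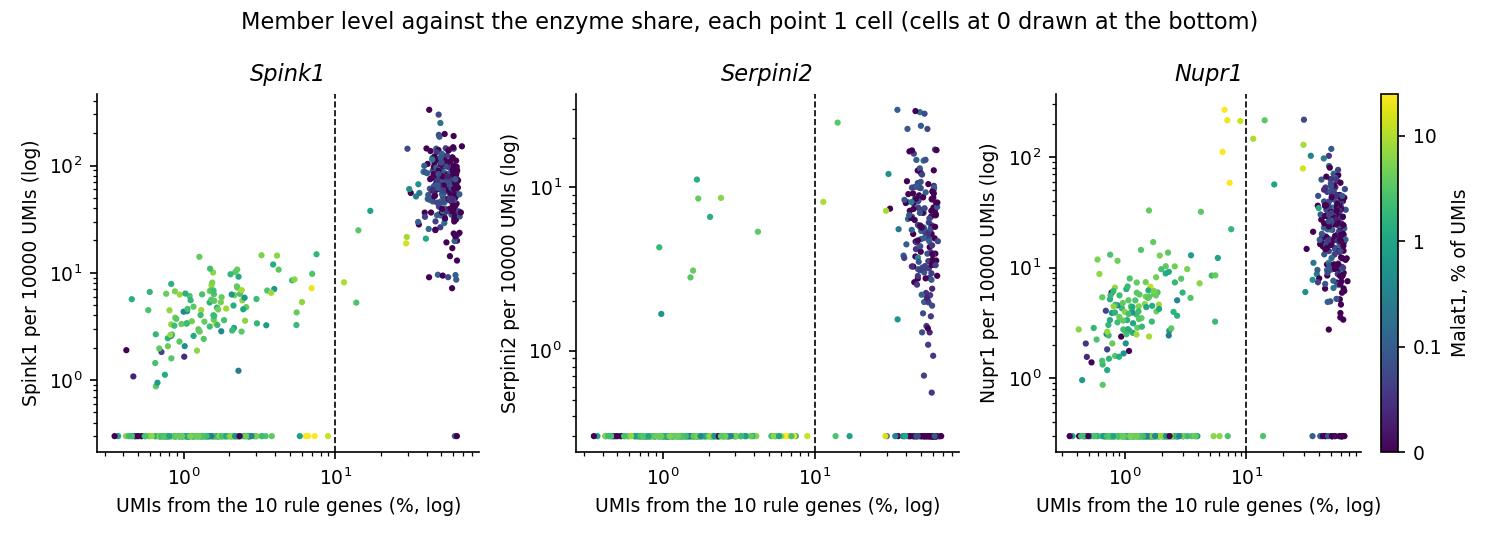
Each point is 1 of 728 cells, with the percentage of UMIs from the 10 enzyme genes (x axis, log) against UMIs of the gene per 10000 UMIs (y axis, log; cells at 0 drawn at the bottom), coloured by the share of UMIs from Malat1; the dashed line is the 10% threshold. Most cells with high Spink1 and Serpini2 stood right of the line, a few cells left of it reached 11.1 UMIs of Serpini2 per 10000 through 1 or 2 UMIs, and yellow points (Malat1 13.2 to 25.03%) just left of it were among the highest in Nupr1.

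Without the cells under 10% that fell in acinar-like clusters at the finer resolution, Nupr1 in other cells was 166 CPM, and at a threshold of 5% it was 159 CPM, down from 257. This alternative was chosen after the values were seen. The contrast of 13.3-fold for Nupr1 is therefore held down by cells near the threshold, and at 5% its log2 ratio was 4.44.

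Clusters made without the members and the trypsinogen genes placed 168 of the acinar cells in 1 cluster and 103 in an enzyme-rich one led by Amy1, Ctrc, Amy2a5 and Cela2a. The remaining 4 fell in endothelial-like (2), ductal-like (1) and erythroid-like (1) clusters. All 3 members were lower in the enzyme-rich cells. Spink1 was at 6490 CPM there against 7515 (0.864-fold, 0.816 to 0.913), Serpini2 at 279 against 412 (0.676-fold, 0.510 to 0.882) and Nupr1 at 2137 against 3767 (0.567-fold, 0.515 to 0.624). None was past 2-fold, where 24.8% of 653 genes were at least 2-fold lower and 1.84% at least 2-fold higher, and the median gene was at -0.52. With the enzyme genes out of the totals the folds were 0.991 for Spink1, 0.775 for Serpini2 and 0.651 for Nupr1, so the Spink1 difference went with the enzymes' share of the RNA. Enzyme-rich cells were shallower, with a median of 1538 against 2790.5 UMIs, and 41 of the 103 had ending 2, against 5 of the 168.

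The barcode endings were therefore read apart. Within ending 1 the folds of enzyme-rich over other acinar cells were 0.842 for Spink1, 0.926 for Serpini2 (0.673 to 1.25) and 0.501 for Nupr1. Within ending 2, with 41 and 5 cells, they were 1.35, 1.99 and 1.11, and the direction turned. The Nupr1 difference was thus present within ending 1, and the Serpini2 difference was not distinguishable from counting error there.

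Serpini2 differed most between the endings, with 129 CPM under ending 2 against 416 under ending 1 (0.309-fold, 0.178 to 0.5002) and a UMI in 11 of 46 cells against 163 of 229. Spink1 was at 6245 against 7431 CPM (0.840-fold) and Nupr1 at 2359 against 3560 CPM (0.663-fold). Serpini2 was the member past 2-fold, among 28.6% of 668 genes that were at least 2-fold lower under ending 2 and 5.24% at least 2-fold higher. Within the enzyme-rich cluster, Serpini2 was at 143 CPM under ending 2 and 392 under ending 1 (0.366-fold, 0.191 to 0.664). There Spink1 was at 6607 and 6393 CPM and Nupr1 at 2410 and 1910 CPM, so there only the Serpini2 difference kept its direction. Within the cluster of 168, with 5 cells under ending 2, all 3 were lower under ending 2, at 0.642-fold for Spink1 (0.537 to 0.761), 0.171-fold for Serpini2 (0.0206 to 0.622) and 0.568-fold for Nupr1 (0.433 to 0.733). Without the 7 shared barcodes, which held 43.9% of the acinar UMIs of ending 2, the folds over all acinar cells were 0.908 for Spink1, 0.258 for Serpini2 and 0.515 for Nupr1, and 0.310 for Serpini2 within the enzyme-rich cluster. As the labels do not say what the endings stand for, sample, lane and animal cannot be told apart in these differences.

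Of 13 trypsinogen and trypsinogen-like genes listed, 10 were measured. Prss2 and Try4 are in the rule, and 6 of the other 8 reached 50 UMIs only through the acinar cells, so their contrast with other cells is not counted. Beside Try4 and Prss2, acinar cells held 2210010C04Rik at 42219 CPM, Try5 at 40852, Try10 at 1204 and Prss3 at 759. Over all 10, the sum per 100 trypsinogen UMIs came to 3.81 for Spink1, 0.200 for Serpini2 and 1.79 for Nupr1. These near-identical genes can share reads, so their single levels are uncertain.

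A list of 11 genes was made around trypsin control, though not all of them act on trypsinogen or trypsin. Cel is a lipase gene and Cpa1 a carboxypeptidase gene. Of this list 7 genes passed 50 UMIs, and 2 of these, Ctrb1 and Cpa1, are in the rule. Of the other 5, 3 were at least 2-fold higher in acinar cells (Ctrc, which passed only through them, Ctrl and Cel), 1 was lower and 1 lay between, where 3.85% of all genes were higher and 85.3% lower. The chymotrypsinogen genes Ctrb1, at 155031 CPM, and Ctrl, at 17259, were more abundant than the inhibitors Spink1 and Serpini2. Ctrc, whose product degrades trypsinogen, was at 552 CPM in 58.9% of acinar cells; it is 1 of the genes that led the enzyme-rich cluster (1302 against 374 CPM there), so that difference restates the clustering. Ctsb, the cathepsin that can activate trypsinogen, was the lower one at 63.6 against 266 CPM, and with the enzyme genes out of the totals it was not past 2-fold.

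Among 18 protease inhibitor genes above 50 UMIs, 3 were at least 2-fold higher in acinar cells, 12 lower and 3 between. All of the 12 but Cst3 and Pebp1 passed 50 UMIs only through the other cells, which favoured a lower call for them. Of all genes 3.85% were higher and 85.3% lower. The median log2 ratio of the 18 was -2.30 against -2.57 over all genes. Serpini2 and Itih4 passed 50 UMIs only through the acinar cells, which favoured a higher call for them. Spint1 passed only on the sum of both sets of cells. Apart from Spink1 and Serpini2 the higher one was Itih4, an inter-alpha-trypsin inhibitor chain, at 64.4 against 0.852 CPM; it is named because the count was small. Cst3, the cystatin C gene, had 342 CPM in acinar and 973 CPM in other cells, and Spint2, a Kunitz-type inhibitor gene, had 147 and 138.

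Nupr1 was set beside 35 genes of the stress response. Of the 19 above 50 UMIs, 7 had fewer than 50 in the other cells. Of the same 19, 4 were at least 2-fold higher there, 6 lower and 9 between, where 3.85% of all genes were higher and 85.3% lower. The median of the 19 was -0.12 against -2.57 over all genes. With the enzyme genes out of the totals 9 were higher and 3 lower, where 7.16% of all genes were higher and 62.7% lower. The most abundant were Hspa5, the endoplasmic reticulum chaperone, at 294 against 176 CPM, Herpud1 at 156 against 82.7, Phgdh at 148 against 29.0 and Xbp1 at 146 against 86.1. The 4 higher ones were Phgdh and Asns, enzymes of amino acid synthesis, Slc7a5, an amino acid carrier, and Chac1, which breaks down glutathione. All 4 are among the 7 and passed 50 UMIs only through the acinar cells, so the filter favoured a higher call for them. Of the 6 lower ones, Ppp1r15a, Cebpg, Sqstm1 and Cdkn1a passed only through the other cells, which favoured a lower call. In the enzyme-rich cluster 8 of 12 were at least 2-fold lower and none higher (median -1.41 against -0.52 over all genes). Hspa5 was at 95.8 against 342 CPM. These 8 had 2 to 22 UMIs there and passed 50 only through the other main acinar cluster, which favoured a lower call. The stress genes also entered the clustering, so the count describes the cluster. Under ending 2 all 12 were at least 2-fold lower, where 28.6% of all genes were, and 10 of 12 with the enzyme genes out of the totals. All 12 passed 50 UMIs only through ending 1, which favoured a lower call here as well. Nupr1 was lower in the same enzyme-rich cells at 0.567-fold, and its part in that list was not tested.

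Of 11 measured regenerating and acute-phase genes, 9 passed 50 UMIs. Of these, 7 were at least 2-fold higher in acinar cells, 4 of them passing only through these cells. The other 2, Clu and Spp1, were lower, Spp1 passing only through the other cells. Of all genes 3.85% were higher and 85.3% lower. The 2 below 50 UMIs, Lcn2 and Hp, had no UMI in acinar cells. Reg1 was at 22119 CPM, Tff2, the gene that drives the Cre, at 6600, Reg2 at 2380 and Reg3b at 798. Tff2 had a UMI in 98.2% of acinar cells and 6.23 UMIs per 100 of trypsinogen, close to Spink1.

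Likeness was measured as Spearman's rho on UMIs per 10000 over the 275 acinar cells, among 442 other genes with a UMI in at least 20% of them. The cells share library, depth and a common total, and the values are descriptions. For Spink1 the closest genes were Tff2 (0.39), Reg1 (0.35), Ggh (0.28), Rpl38 (0.25) and Rpl37 (0.24), and Pearson's r on log counts was 0.42 with Tff2. For Serpini2 they were Cpb1 (0.36), 2210010C04Rik (0.29), Tob1 (0.27), Hist1h1c (0.25) and Rnase1 (0.25). For Nupr1 they were the metallothionein genes Mt1 (0.35) and Mt2 (0.33), then Xist (0.30), Egr1 (0.30) and Atf5 (0.27). With each cell thinned to 1000 UMIs the first rho of each list was 0.29, 0.26 and 0.33, and that of Egr1 with Nupr1 was 0.14. Over the acinar cells of ending 1 alone the first rho of each list was 0.40, 0.23 and 0.42. The rest of the Serpini2 list ran from 0.17 to 0.22 there. No gene stood in more than 1 of the 3 lists.

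The members were weakly related to one another, at 0.04 for Spink1 with Serpini2, 0.10 for Spink1 with Nupr1 and 0.14 for Serpini2 with Nupr1. Against Try4 they stood at -0.02, -0.16 and -0.09, and against Prss2 at 0.05, -0.09 and -0.12. With the enzyme genes out of the total Spink1 was at 0.22 with Prss2 and 0.17 with Try4. Values this weak are given as descriptions only, and no pair of the 3 genes stood above 0.14 over these acinar cells.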

How the data were processed

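Single cells of 2 samples of 1 group were measured with 10x Genomics libraries. The authors deposited raw UMI counts per gene and cell in 1 table of 14793 gene rows. Cell Ranger and mm10 are named per the submitters' processing notes, with versions and the filter on cells not given in the sources used here. Repeated symbols were summed to 14789, of which 14333 matched GENCODE M21. Barcode endings are not tied to samples, so no test was run. Cells above the 10% rule were summed to CPM with exact Poisson intervals, shares carry Clopper-Pearson intervals, and ratios exact conditional intervals (scipy 1.17.1, numpy 2.4.6, pandas 2.3.3, Python 3.11.15). Log2 ratios used a prior of 0.5 counts over genes with at least 50 UMIs, and a gene was called at 2-fold. Thinning drew 1000 UMIs per cell without replacement. Clusters were made with scanpy 1.11.5 (igraph 0.11.9) on counts per 10000, 2000 variable genes, 20 components, 15 neighbours and Leiden resolution 0.5, without the members and trypsinogens. They were named from marker lists with at least 3 markers seen, so class names rest on that rebuilding. Scrublet called 3 doublets (0.412%), which were kept. The ratio calculation was tested on simulated data. Named genes were the members, the up to 4 most abundant genes of each list, genes at least as high as the lowest member, and the 5 nearest genes by rho. Members and lists were chosen with earlier results of these data known. Alternatives were thresholds of 5, 20 and 40%, totals without the 10 enzyme genes, floors of 20 and 200 UMIs, a prior of 2 counts, other trypsinogen sets, thinning, resolution 1.0 and leaving out barcode endings, shared barcodes, doublets or cells over 10% mitochondrial UMIs. Leaving out the 10 deepest acinar cells, leaving out the low-enzyme cells of acinar-like clusters, and reading the clusters within each ending were chosen after seeing the data.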

Additional observations from a re-analysis of the deposited data

How the results depend on the processing

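Of 148 alternatives, 86 stayed within the counting interval or 1.5 times the count, 62 moved, and no log2 ratio of acinar over other cells changed sign.

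With the 10 enzyme genes out of the totals, acinar levels were 15641 CPM for Spink1, 822.9 for Serpini2 and 7341 for Nupr1, the log2 ratios of Spink1 and Nupr1 were 7.07 and 4.81, and 259 genes were at least 2-fold higher against 139. As a mean over cells the levels were 7010, 459 and 2684 CPM. Without the 10 deepest cells Serpini2 was at 421 and Nupr1 at 2871 CPM, and the ratios to trypsinogen were 7.43, 0.429 and 2.93 per 100. Over all trypsinogen genes the ratios were 3.81, 0.200 and 1.79. As medians over cells with at least 20 trypsinogen UMIs they were 7.15, 0.298 and 2.05, and with at least 100 they were 6.71, 0.297 and 1.96. At a threshold of 40% those of Spink1 and Nupr1 were 6.74 and 3.09. Thinning gave shares of 37.1% for Serpini2 and 80.7% for Nupr1.

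In other cells Nupr1 was at 159 CPM with a threshold of 5%, 299 at 20%, 150 in cells under 2% and 166 without the low-enzyme cells of acinar-like clusters; Spink1 was at 88.7 in cells under 2%. The log2 ratio of Nupr1 was 4.44 at 5% and 3.51 at 20%. Floors of 20 and 200 UMIs gave 222 and 77 genes higher and 6109 and 712 lower, against 139 and 3083, since they admit more or fewer genes.

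Leaving out 1 barcode ending at a time gave these ranges. Acinar levels ran from 6245 to 7431 CPM for Spink1, 129 to 416 for Serpini2 and 2359 to 3560 for Nupr1. Shares ran from 23.9 to 71.2% for Serpini2 and 89.5 to 95.7% for Nupr1. Ratios ran from 4.85 to 7.21, 0.0997 to 0.404 and 1.83 to 3.46 per 100. Levels in other cells ran from 91.99 to 115 CPM for Spink1 and 0 to 8.85 for Serpini2. Log2 ratios ran from 3.52, which rests on the prior count since other cells of ending 2 had no UMI, to 5.49 for Serpini2 and from 3.04 to 3.79 for Nupr1. The folds of enzyme-rich over other acinar cells ran from 0.842 to 1.35, 0.926 to 1.99 and 0.501 to 1.11. Under ending 2, where 1 side held 5 cells, the turn was beyond counting error for Spink1 only. Genes at least 2-fold higher ran from 42 to 138 and lower from 170 to 2955, as ending 2 leaves few genes over the floor.

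No paired analysis was possible because the cells carry no replicate label and there is 1 group. Depth limits Serpini2 most, with 453 acinar UMIs and 10 in other cells. Gene totals lean on the deepest 92 acinar cells, which held 73.6% of acinar UMIs. The counting intervals leave out the variation between animals, which these data cannot give.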
